A study of Homo sapiens with 6 samples.

Results

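The 7 genes described here encode the CDC25 phosphatases (*CDC25A*, *CDC25B* and *CDC25C*), the WEE1 family kinases (*WEE1* and *PKMYT1*) and the checkpoint kinases (*CHEK1* and *CHEK2*). They were taken by exact gene symbol from a table of 22807 genes, and all 7 were found and passed the filter on low values. Their RNA was measured by RNA sequencing in the HER2+ breast cancer cell line MDA-MB-453, an established line, after transfection with *DUSP6* siRNA (3 libraries) or scrambled siRNA (3 libraries). All 6 libraries came from the same line with a wild-type genotype label, grown in RPMI with 10% fetal bovine serum. By the labels the groups differed in the siRNA alone, and the sources used here do not give the time after transfection. The study describes different *DUSP6* siRNAs set against different scramble controls, and the labels do not tie them to single libraries. The spread within a group can therefore hold differences between siRNAs, and the labels do not say whether the libraries came from separate cultures, so the p-values measure the spread between these libraries only. *DUSP6* encodes a dual-specificity phosphatase of the ERK kinases. The question addressed here is how the RNA of the genes that gate CDK activity differed between the groups.

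The cyclin-dependent kinases CDK1 and CDK2 are held inactive by phosphate groups near their ATP-binding site. WEE1, a nuclear kinase, and PKMYT1, a kinase bound to membranes of the ER and Golgi, add these phosphates. The CDC25 phosphatases remove them and so allow entry into S phase and mitosis. After DNA damage or stalled replication, ATR activates CHEK1 and ATM activates CHEK2. Both checkpoint kinases phosphorylate CDC25 proteins, which are then degraded or bound by 14-3-3 proteins. Much of this control acts on protein activity and stability, and the data here are RNA levels.

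RefSeq promoter windows on GRCh38 were matched for 5 of the 7 genes, and in 4 of these a window lay at the start of the MANE Select transcript, the reference transcript of the gene. The 250 bases before that start are shown, 5′ to 3′ on the strand of the gene, for 2 genes that fell with *DUSP6* siRNA (*CDC25B* and *CDC25C*) and the 2 that did not pass the test (*CDC25A* and *CHEK2*). Capitals mark letters of a CHR element with the letters TTTGAA, of the CCAAT box, which reads ATTGG on the opposite strand, or of an E2F site (TTTGGCGC, TTTCCCGC, TTTCGCGC or TTTGCCGC), searched on both strands.
CDC25A (chr3:48188418-48188667, minus strand): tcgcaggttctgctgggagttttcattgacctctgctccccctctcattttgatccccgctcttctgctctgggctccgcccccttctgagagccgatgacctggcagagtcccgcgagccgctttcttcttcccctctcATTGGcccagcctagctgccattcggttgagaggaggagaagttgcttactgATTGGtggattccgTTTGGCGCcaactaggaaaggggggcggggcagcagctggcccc
CDC25B (chr20:3796060-3796309, plus strand): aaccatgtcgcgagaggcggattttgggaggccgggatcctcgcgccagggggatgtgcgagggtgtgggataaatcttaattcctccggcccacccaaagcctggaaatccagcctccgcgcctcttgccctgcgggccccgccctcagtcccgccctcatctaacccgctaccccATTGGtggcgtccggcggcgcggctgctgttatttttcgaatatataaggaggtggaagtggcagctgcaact
CDC25C (chr5:138331805-138332054, minus strand): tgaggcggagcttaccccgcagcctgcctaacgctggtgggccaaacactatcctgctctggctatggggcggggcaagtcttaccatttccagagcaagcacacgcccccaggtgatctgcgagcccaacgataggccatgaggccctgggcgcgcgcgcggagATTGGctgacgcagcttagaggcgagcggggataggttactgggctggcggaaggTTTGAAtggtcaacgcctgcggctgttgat
CHEK2 (chr22:28741821-28742070, minus strand): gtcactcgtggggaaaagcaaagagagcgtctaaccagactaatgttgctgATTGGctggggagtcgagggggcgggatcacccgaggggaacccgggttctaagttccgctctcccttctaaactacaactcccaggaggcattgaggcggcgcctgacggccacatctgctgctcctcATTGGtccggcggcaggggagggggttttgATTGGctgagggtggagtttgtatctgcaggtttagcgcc

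Each of the 4 windows held at least 1 CCAAT box. There were 2 in *CDC25A*, 1 in *CDC25B*, 1 in *CDC25C* and 3 in *CHEK2*, against 32.0% of all 34943 windows of this length with a match. The E2F letters occurred in *CDC25A*, at positions -44 to -37 counted from the transcript start, and in 2.77% of all windows. The CHR letters occurred in *CDC25C*, at positions -30 to -25 with a CCAAT box at -85 to -81, and in 13.4% of all windows. CHR elements and CCAAT boxes are known from genes expressed late in the cell cycle, and E2F sites from genes of the G1/S transition. CCAAT boxes were found both in genes that fell and in genes that did not pass the test. The CHR letters were found only in *CDC25C*, which fell, and the E2F letters only in *CDC25A*, which did not pass. Forms of the CHR element other than TTTGAA were not searched, and 4 windows cannot show whether such matches separate the genes. A match describes the letters in these windows, and binding was not measured.

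Of the 7 genes, 5 fell with *DUSP6* siRNA and 0 rose (limma, Benjamini-Hochberg adjusted p under 0.05 over 12862 tested genes). *PKMYT1*, *CDC25B* and *CDC25C* fell most, to between 52.3% and 56.4% of their scrambled siRNA means. *CHEK1* fell to 67.2% and *WEE1* to 74.6%. *CDC25A* and *CHEK2* did not pass the test. These counts stand against a wide background, since 24.7% of all tested genes were lower and 19.7% were higher by the same rule. For the same 5 genes the highest *DUSP6* siRNA library lay below the lowest scrambled siRNA library, and for 0 genes was it the reverse. Over all tested genes, 31.1% were lower without overlap and 26.7% higher without overlap. The median log2 fold change was -0.56 over the 7 genes and -0.01 over all tested genes. In bulk RNA, fewer cells in a given cell cycle phase and less RNA per cell cannot be told apart.

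**Figure D1:**
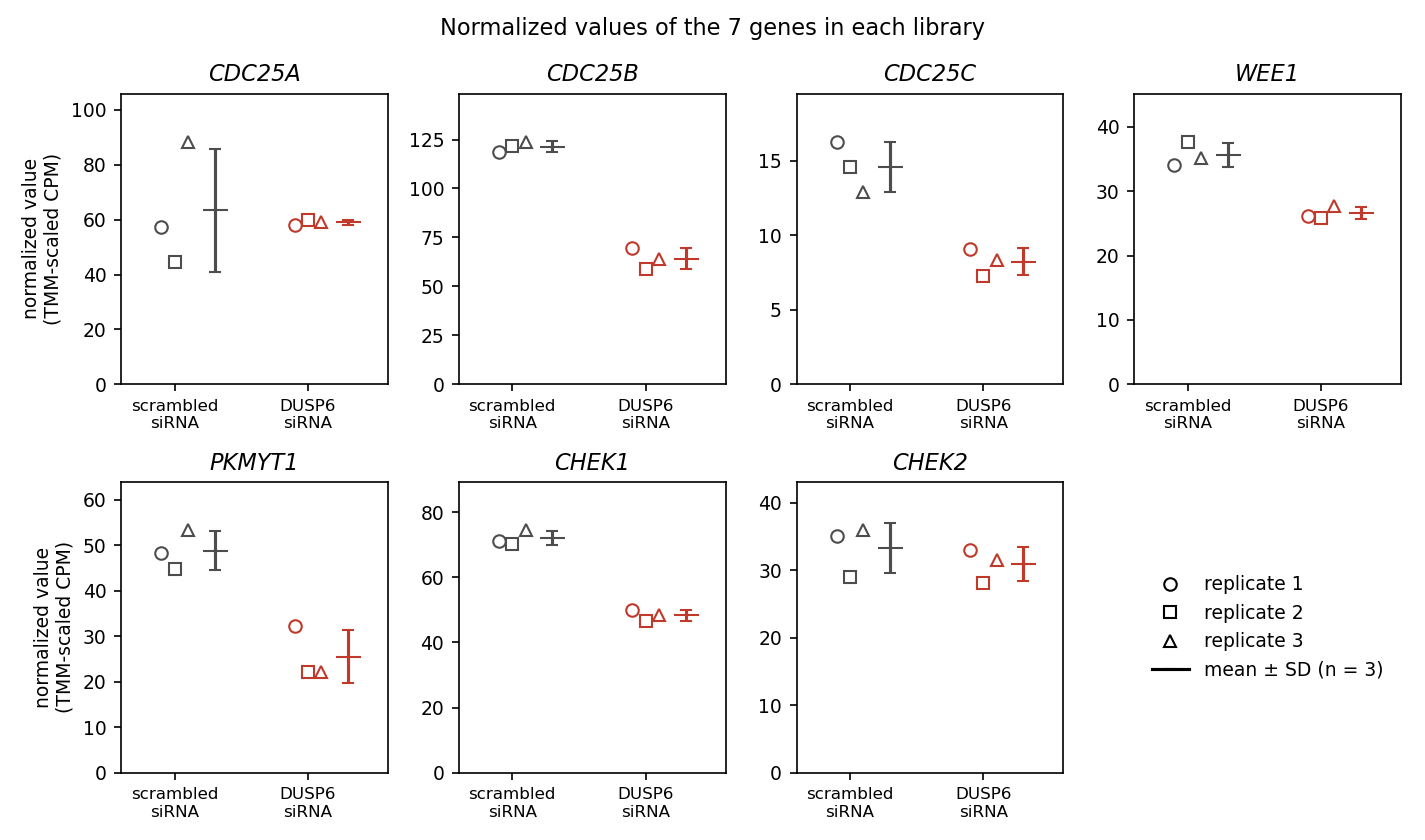
Normalized value (TMM-scaled CPM, linear axis from 0, its scale set for each gene) of the 7 genes in the 3 scrambled siRNA libraries (grey) and the 3 DUSP6 siRNA libraries (red), with the mean and SD to the right of each group. The groups are apart for CDC25B, CDC25C, WEE1, PKMYT1 and CHEK1, and overlap for CDC25A, where scrambled siRNA runs from 44.6 to 88.3, and for CHEK2.

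A normalized value is a CPM computed with the TMM-scaled library size, so it does not account for gene length. It was 1.14, 1.08 and 1.03 times the CPM on the unscaled library size in scrambled siRNA replicates 1 to 3. In *DUSP6* siRNA replicates 1 to 3 it was 0.921, 0.925 and 0.924 times that CPM. The scaling thus lowered every gene with *DUSP6* siRNA relative to scrambled siRNA. The percentages and fold changes given here include it, and those without it were not computed. Behind the values stood 45546981 to 85729785 reads per library and 447 to 10269 reads per library for each of the 7 genes. The targeted gene *DUSP6* was lower in every library labelled as its knockdown, with values of 110 to 209 under scrambled siRNA and 24.5 to 39.4 under *DUSP6* siRNA (log2 fold change -2.05 ± 0.25, SE, adjusted p = 3.09e-04 by limma). Fold changes are on the log2(value + 1) scale, which makes changes of low genes smaller.

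*CDC25A*, the phosphatase that acts at the G1/S transition and again before mitosis, lies on chromosome 3 of GRCh38 from 48157146 to 48188417. It had normalized values of 57.4, 44.6 and 88.3 in scrambled siRNA replicates 1 to 3 and of 58.2, 59.9 and 59.1 in *DUSP6* siRNA replicates 1 to 3. The *DUSP6* siRNA libraries thus lay close to each other and inside the range of the scrambled siRNA libraries. The group means were 63.4 ± 22.5 and 59.1 ± 0.847 (SD, n = 3 each). The log2 fold change was -0.04 with a 95% interval from -0.51 to 0.42 (limma adjusted p = 0.877). Changes of either sign inside that interval are compatible with these libraries. Its sign depended on scrambled siRNA replicate 3, and without that library it was 0.22 on the log2 scale (limma adjusted p = 0.136).

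*CDC25B*, the phosphatase that starts CDK1 activation at the centrosome in late G2, lies on chromosome 20 from 3786951 to 3806115. Its normalized values were 119, 122 and 124 with scrambled siRNA and 69.7, 59.1 and 63.9 with *DUSP6* siRNA. The scrambled siRNA libraries were close to each other, and every *DUSP6* siRNA library lay far below them. The mean fell from 121 ± 2.65 to 64.2 ± 5.30 (SD, n = 3 each), by a log2 fold change of -0.91 ± 0.09 (SE, adjusted p = 1.05e-04 by limma). *CDC25B* ranked 671 from the most lowered of the 12862 tested genes.

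*CDC25C*, a phosphatase of the CDK1 and cyclin B complex at mitotic entry, lies on chromosome 5 from 138285265 to 138338355. It had the lowest values of the 7 genes, with 16.2, 14.5 and 12.9 under scrambled siRNA and 9.04, 7.24 and 8.36 under *DUSP6* siRNA. The groups did not overlap. The mean fell from 14.6 ± 1.68 to 8.21 ± 0.908 (SD, n = 3 each), by a log2 fold change of -0.76 ± 0.13 (SE, adjusted p = 0.00156 by limma). Exons of *FAM53C* cover 8.80% of the *CDC25C* exon sequence, so the value of *CDC25C* is uncertain. *FAM53C*, on the opposite strand, had higher values than *CDC25C* and rose from 51.4 ± 6.995 to 81.2 ± 6.05 (SD, n = 3 each, log2 fold change 0.65, limma adjusted p = 0.00210). How reads in this overlap were counted, or whether they were left out, was not tested.

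*WEE1*, the nuclear kinase that phosphorylates CDK1 and CDK2, lies on chromosome 11 from 9573670 to 9589985. Its normalized values were 34.1, 37.7 and 35.2 with scrambled siRNA and 26.2, 25.9 and 27.7 with *DUSP6* siRNA. All *DUSP6* siRNA libraries lay below all scrambled siRNA libraries, with little spread within each group. The mean fell from 35.7 ± 1.84 to 26.6 ± 0.934 (SD, n = 3 each), by a log2 fold change of -0.41 ± 0.09 (SE, adjusted p = 0.00700 by limma). Of the 5 genes that fell, *WEE1* had the fold change nearest to 0. *WEE1* has 2 pseudogene copies in the annotation, neither of them among the genes with values, so reads may have been shared and its value is uncertain.

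*PKMYT1*, the membrane-bound kinase that phosphorylates CDK1, lies on chromosome 16 from 2972808 to 2980446. Its normalized values were 48.3, 44.8 and 53.3 with scrambled siRNA and 32.2, 22.2 and 22.2 with *DUSP6* siRNA. *DUSP6* siRNA replicate 1 was higher than the other two of its group but still below every scrambled siRNA library. The mean fell from 48.8 ± 4.24 to 25.5 ± 5.77 (SD, n = 3 each), by a log2 fold change of -0.93 ± 0.15 (SE, adjusted p = 0.00131 by limma). Exons of *PAQR4*, on the opposite strand, cover 24.7% of the *PKMYT1* exon sequence. The study counted with the default settings of Rsubread, which do not use strand, so strand did not assign reads there and both values are uncertain. *PAQR4* fell as well, from 82.2 ± 7.90 to 38.8 ± 4.94 (SD, n = 3 each, log2 fold change -1.07, limma adjusted p = 1.76e-04). How reads in the overlap were counted, or whether they were left out, was not tested.

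*CHEK1*, the kinase activated by ATR at stalled replication forks, lies on chromosome 11 from 125625136 to 125681124. It had normalized values of 71.2, 70.1 and 74.3 with scrambled siRNA and of 49.9, 46.6 and 48.4 with *DUSP6* siRNA. Both groups were tight, and they did not overlap. The mean fell from 71.9 ± 2.17 to 48.3 ± 1.64 (SD, n = 3 each), by a log2 fold change of -0.56 ± 0.08 (SE, adjusted p = 8.44e-04 by limma).

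*CHEK2*, the kinase activated by ATM at DNA double-strand breaks, lies on chromosome 22 from 28687742 to 28741834. Its normalized values were 35.1, 29.1 and 35.9 with scrambled siRNA and 33.1, 28.1 and 31.6 with *DUSP6* siRNA. The groups overlapped, and the second library was the lowest in each. The mean was 33.4 ± 3.74 with scrambled siRNA and 30.9 ± 2.55 with *DUSP6* siRNA (SD, n = 3 each). The log2 fold change was -0.10 with a 95% interval from -0.36 to 0.16 (limma adjusted p = 0.488). Exons of *HSCB* cover 6.52% of the *CHEK2* exon sequence, and *HSCB*, whose value is uncertain for the same reason, rose (log2 fold change 0.49, limma adjusted p = 0.0277). *CHEK2* also has 6 pseudogene copies in the annotation, of which *CHEK2P2* was in the table with values of 0.651 to 2.00, so reads may have been shared and the value of *CHEK2* is uncertain.

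Taken gene by gene, a two-sided exact permutation test over the 6 libraries gave p = 0.1 for each of the 5 genes that fell, which is the smallest p that 3 libraries against 3 can give. The same exact permutation test gave p = 1 for *CDC25A* and p = 0.4 for *CHEK2*. The quasi-likelihood test of edgeR, run on recovered reads, made the same 5 calls. Its log2 fold changes were -0.88 for *CDC25B* (adjusted p = 1.92e-04), -0.79 for *CDC25C*, -0.39 for *WEE1*, -0.90 for *PKMYT1* and -0.54 for *CHEK1*.

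**Figure D2:**
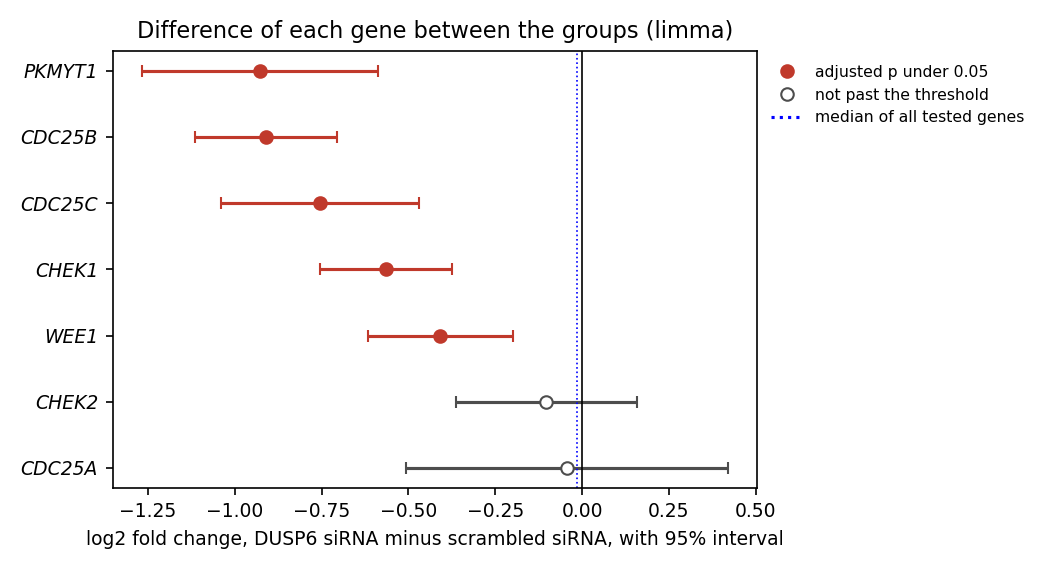
Log2 fold change of each of the 7 genes (DUSP6 siRNA minus scrambled siRNA, horizontal axis) with its 95% interval from limma, where filled points passed an adjusted p under 0.05 and the dotted line marks the median of all tested genes. The intervals of PKMYT1, CDC25B, CDC25C, CHEK1 and WEE1 lie below 0, and those of CHEK2 and CDC25A span 0.

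To compare levels between genes, each normalized value was divided by the length of the MANE Select transcript in kilobases. Reads were counted over gene models, which can hold exons of other transcripts, so the order depends on the length taken. All annotated exons together cover 9251 bases for *WEE1*, against 3588 in its MANE Select transcript. They cover 4974 against 2061 for *PKMYT1* and 4493 against 1844 for *CHEK2*, but 3903 against 3119 for *CDC25B*. An order by those lengths was not computed. With scrambled siRNA, *CDC25B* had the highest level per kilobase (38.9 ± 0.849, SD, n = 3), followed by *PKMYT1* (23.7 ± 2.06), *CHEK2* (18.1 ± 2.03), *CHEK1* (17.4 ± 0.527), *CDC25A* (16.5 ± 5.85), *WEE1* (9.94 ± 0.514) and *CDC25C* (6.95 ± 0.803). In that order the ranges of *CHEK2* and *CHEK1* overlapped, as did those of *CHEK1* and *CDC25A*. With *DUSP6* siRNA, *CDC25B* was still the highest per kilobase (20.6 ± 1.70) and *CDC25C* the lowest (3.92 ± 0.434). Between them stood *CHEK2* (16.8 ± 1.38), *CDC25A* (15.4 ± 0.220), *PKMYT1* (12.4 ± 2.80), *CHEK1* (11.7 ± 0.397) and *WEE1* (7.42 ± 0.260). The ranges of neighbors from *CHEK2* down to *CHEK1* overlapped. *PKMYT1* thus moved from the second place to the fourth by mean, while *CDC25B*, *WEE1* and *CDC25C* kept their places.

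The makeup of each family was computed from the levels per kilobase after the values had been seen, so it is given as a description. Exact permutation tests of the shares and sums gave p from 0.1, the smallest possible, to 0.4, and no conclusion is drawn from them. The sums and shares depend on the transcript lengths taken in the same way. The summed level of the 3 CDC25 genes was 62.4 ± 5.77 with scrambled siRNA and 39.9 ± 1.91 with *DUSP6* siRNA (SD, n = 3 each), and the groups did not overlap. *CDC25B* made up 62.7% ± 5.08 of that sum with scrambled siRNA and 51.6% ± 1.79 with *DUSP6* siRNA, again without overlap. The share of *CDC25A* was 26.0% ± 6.75 and 38.6% ± 2.40, also without overlap, although its own level overlapped between the groups. *CDC25C* made up 11.3% ± 2.04 and 9.82% ± 0.637, with overlap. *CHEK1* made up 49.2% ± 2.37 of the *CHEK1* and *CHEK2* sum with scrambled siRNA and 41.2% ± 1.23 with *DUSP6* siRNA, without overlap. The share of *WEE1* in the *WEE1* and *PKMYT1* sum was 29.6% ± 2.61 and 37.9% ± 5.30, and here *DUSP6* siRNA replicate 1 (31.9%) lay below scrambled siRNA replicate 2 (32.6%). That sum itself was 33.6 ± 1.81 with scrambled siRNA and 19.8 ± 2.72 with *DUSP6* siRNA.

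**Figure D3:**
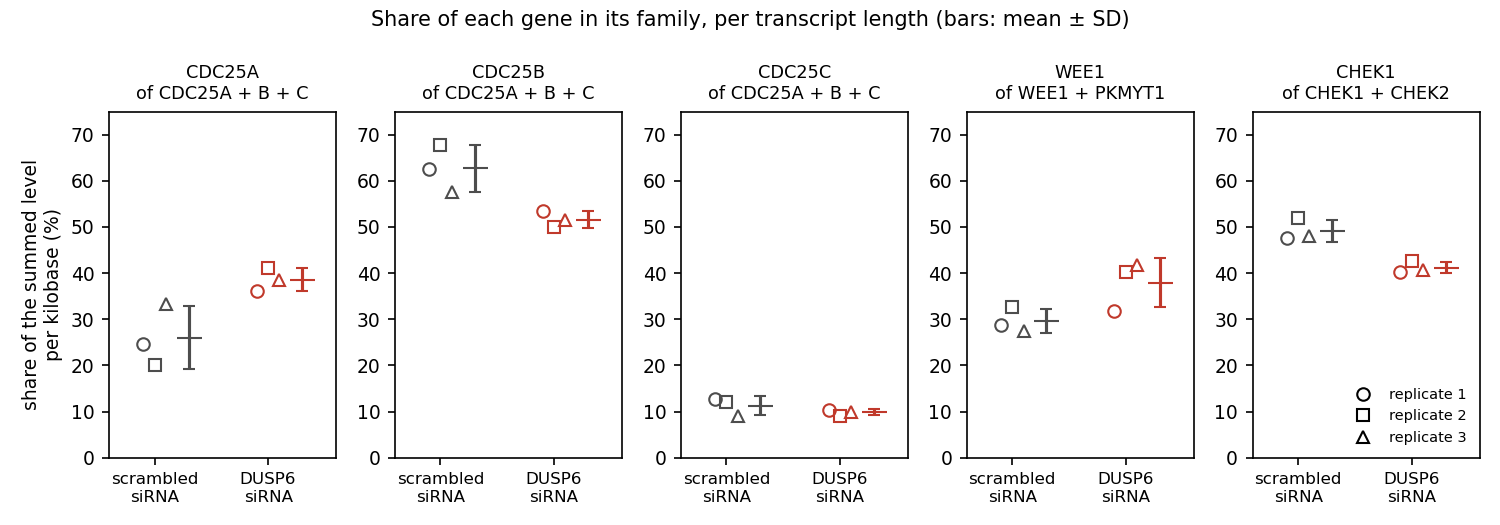
Share (percent, axis from 0) of a gene in the summed level per kilobase of its family in each library, with scrambled siRNA in grey, DUSP6 siRNA in red and the mean and SD beside each group. CDC25B and CHEK1 take a smaller share, and CDC25A a larger one, in every red point than in any grey point, while CDC25C and WEE1 overlap.

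Ratios of 2 genes were taken within each library, as the difference of their log2(value + 1). A total of 8 log2 ratios of phosphatase to kinase or of one kinase to another were compared with two-sided exact permutation tests, in which no p could fall below 0.1. The log2 ratio of *CDC25B* to *WEE1* was 1.74 ± 0.0627 with scrambled siRNA and 1.24 ± 0.120 with *DUSP6* siRNA (SD, n = 3 each), a difference of -0.50 without overlap (exact permutation p = 0.1, adjusted 0.2). That of *CDC25C* to *WEE1* differed by -0.35 and that of *CHEK1* to *CHEK2* by -0.46, each without overlap and with the same p-values. The log2 ratio of *CDC25A* to *PKMYT1* was 0.88 higher with *DUSP6* siRNA, again without overlap, and had the same p-values. Relative to *PKMYT1*, *CDC25B* differed by 0.02 (exact permutation p = 1) and *CDC25C* by 0.17 (exact permutation p = 0.4), and both ratios overlapped. The ratio of *CDC25A* to *WEE1* (difference 0.36, exact permutation p = 0.4) and of *WEE1* to *PKMYT1* (0.52, exact permutation p = 0.2) overlapped too. With 3 libraries per group, none of the 8 ratios could pass a threshold of 0.05. Single libraries moved some of the ratios that overlapped. The difference for *CDC25A* to *WEE1* was 0.10 without scrambled siRNA replicate 2 and 0.64 without scrambled siRNA replicate 3. That of *CDC25C* to *PKMYT1* was 0.030 without scrambled siRNA replicate 3, 0.072 without *DUSP6* siRNA replicate 3 and 0.28 without *DUSP6* siRNA replicate 1. That of *CDC25B* to *PKMYT1* was 0.13 without *DUSP6* siRNA replicate 1 and -0.068 when *DUSP6* siRNA replicate 3 was left out, and it was also negative without scrambled siRNA replicate 3 or *DUSP6* siRNA replicate 2. The ratios that did not overlap kept their sign with each library left out, from -0.57 to -0.46 for *CDC25B* to *WEE1*, -0.42 to -0.24 for *CDC25C* to *WEE1*, 0.72 to 1.08 for *CDC25A* to *PKMYT1* and -0.51 to -0.39 for *CHEK1* to *CHEK2*.

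**Figure D4:**
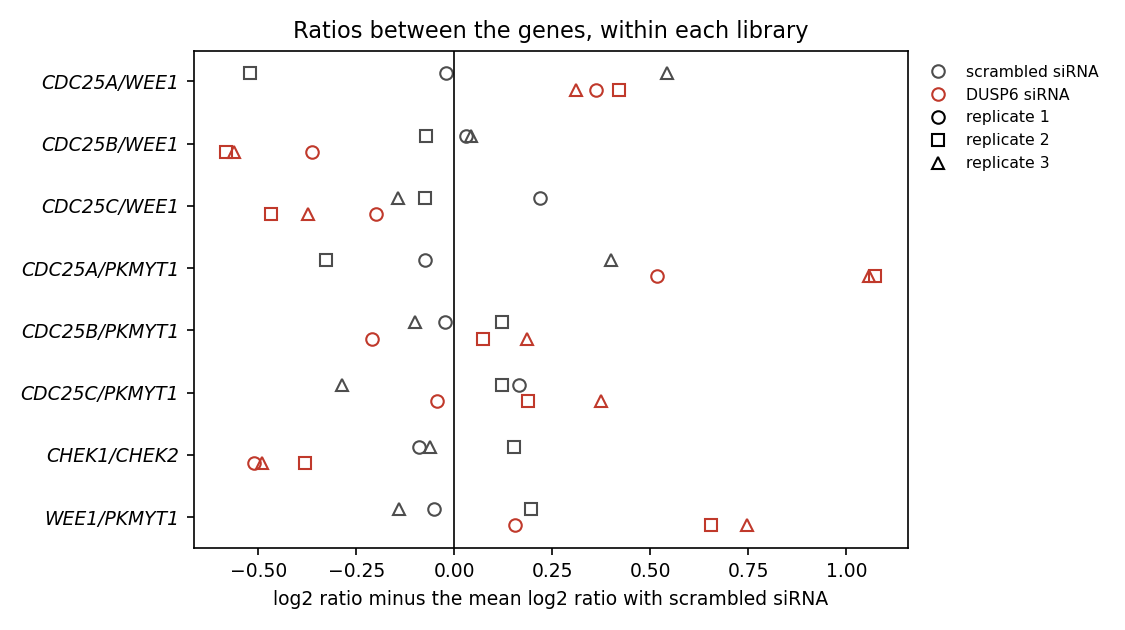
Log2 ratio of 2 genes in each library, minus the mean log2 ratio of the scrambled siRNA libraries (horizontal axis), for the 8 ratios, with scrambled siRNA in grey and DUSP6 siRNA in red. The red points lie apart from the grey ones for CDC25B/WEE1, CDC25C/WEE1, CDC25A/PKMYT1 and CHEK1/CHEK2, and overlap or interleave with them for the other 4 ratios.

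The genes that act beside these 7 were grouped by role, and each list is set against the 24.7% of all genes that were lower and the 19.7% that were higher. Of the CDKs and cyclins that the CDC25 and WEE1 enzymes act on, with the CDK-activating kinase, 11 of 12 were tested, 4 fell, 1 rose and 6 did not pass (median log2 fold change -0.23). *CCNB2*, which encodes a mitotic B-type cyclin, fell from 91.1 ± 3.63 to 43.0 ± 3.62 (SD, n = 3 each, log2 fold change -1.07, standard error 0.09, limma adjusted p = 5.17e-05). *CDK2*, the kinase of S phase, fell from 72.1 ± 4.44 to 43.0 ± 2.13 (log2 fold change -0.73, limma adjusted p = 3.43e-04). *CCNA2*, which encodes the cyclin of S and G2 phase, fell by 0.54 on the log2 scale (limma adjusted p = 0.0145), and its value is uncertain because exons of *EXOSC9* cover 9.24% of its exon sequence. Chosen after their values were seen, *CDK1*, the kinase of mitotic entry, also fell (log2 fold change -0.51, limma adjusted p = 0.00422), and *CCNB1*, its main cyclin, had a log2 fold change of -0.23 (adjusted p = 0.0534 by limma). The gene that rose, named for the same reason, was *CDK7*, the kinase that activates other CDKs (log2 fold change 0.28). That call was lost without scrambled siRNA replicate 1 or without any 1 of the *DUSP6* siRNA libraries, which left 0 higher.

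Of the 9 activators of mitotic entry, 6 fell, 0 rose and 3 did not pass (median log2 fold change -0.49). The number that fell ranged from 4 to 6 with a library left out. It was 5 with edgeR, quantile normalization, a replicate block, no filter or a mean value of at least 10. *PLK1*, the kinase that activates CDC25C and marks WEE1 for degradation, fell from 163 ± 29.0 to 105 ± 7.78 (SD, n = 3 each, log2 fold change -0.61, standard error 0.13, limma adjusted p = 0.00516). *AURKA*, which activates PLK1, fell from 101 ± 7.99 to 67.6 ± 2.22 (log2 fold change -0.56, limma adjusted p = 0.00127). *BORA*, the cofactor of AURKA in that step, had a log2 fold change of -0.55 (adjusted p = 0.0120 by limma), with 37.0% of its exon sequence covered by exons of *DIS3*, so its value is uncertain.

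Of the 24 sensors and mediators that lie upstream of CHEK1 and CHEK2, 9 fell, 1 rose and 14 did not pass (median log2 fold change -0.24). *RPA2*, a subunit of the protein that coats single-stranded DNA, fell from 98.8 ± 15.0 to 43.8 ± 4.21 (SD, n = 3 each, log2 fold change -1.15, standard error 0.12, limma adjusted p = 1.63e-04). *H2AX*, the histone variant phosphorylated at DNA breaks, fell from 61.6 ± 10.6 to 28.1 ± 4.86 (log2 fold change -1.10, limma adjusted p = 6.75e-04). *CLSPN*, which encodes the adaptor through which ATR activates CHEK1, fell from 55.2 ± 6.28 to 27.0 ± 2.45 (log2 fold change -1.003, limma adjusted p = 2.08e-04). The gene that rose was *ATM*, the kinase upstream of CHEK2 (log2 fold change 0.32, limma adjusted p = 0.0142), which is named after its value was seen. The number that rose was 0 without *DUSP6* siRNA replicate 1 or 3 and 2 without scrambled siRNA replicate 2 or 3. *ATR*, the kinase upstream of CHEK1, likewise named after its value was seen, had a log2 fold change of -0.23 (adjusted p = 0.0591 by limma).

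Downstream of the checkpoint, 7 effectors of the p53 branch were tested, of which 1 fell, 2 rose and 4 did not pass (median log2 fold change -0.09). *CDKN1A*, which encodes the CDK inhibitor p21, rose from 52.1 ± 9.84 to 92.7 ± 11.0 (SD, n = 3 each, log2 fold change 0.83, standard error 0.15, limma adjusted p = 0.00229). *RRM2B*, a p53-induced subunit of ribonucleotide reductase, rose from 50.1 ± 4.18 to 72.0 ± 8.37 (log2 fold change 0.51, limma adjusted p = 0.00567). *MDM2*, the ubiquitin ligase of p53 and itself a p53 target, moved the other way and fell by 0.33 on the log2 scale (limma adjusted p = 0.0134). The number that fell was 0 without *DUSP6* siRNA replicate 1 or 2 and 2 without scrambled siRNA replicate 3.

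Of 10 genes for the turnover of CDC25 and WEE1 proteins, 9 were tested, 2 fell, 3 rose and 4 did not pass (median log2 fold change 0.16). The number that rose was 2 without scrambled siRNA replicate 1 and without each *DUSP6* siRNA library, and 4 without scrambled siRNA replicate 2. It was also 2 with a replicate block or with eBayes without a trend, and 4 with quantile normalization. *RBX1*, the RING subunit of cullin ubiquitin ligases, rose from 37.9 ± 2.61 to 68.3 ± 4.31 (SD, n = 3 each, log2 fold change 0.83, standard error 0.10, limma adjusted p = 2.16e-04). *NEK11*, a kinase that promotes CDC25A degradation, rose from 7.77 ± 1.69 to 13.7 ± 1.15 (log2 fold change 0.76, limma adjusted p = 0.00334). *CDCA3*, a trigger of mitotic entry that promotes WEE1 degradation, fell by 0.54 on the log2 scale (limma adjusted p = 0.00428), with 11.3% of its exon sequence covered by exons of *GNB3*, so its value is uncertain. Of the 7 genes for 14-3-3 proteins, 3 fell, 0 rose and 4 did not pass (median log2 fold change -0.20). *YWHAH* fell by 0.93, *SFN* by 0.68 and *YWHAE* by 0.51 on the log2 scale (limma adjusted p = 5.92e-04, 0.00706 and 0.00152).

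Of 10 other kinases and phosphatases that act on the CDC25 proteins or the checkpoint kinases, 3 fell, 0 rose and 7 did not pass (median log2 fold change -0.09). *PLK3*, a polo-like kinase, fell from 7.18 ± 0.548 to 4.35 ± 0.375 (SD, n = 3 each, log2 fold change -0.61, limma adjusted p = 0.00256). *PPM1D*, the phosphatase that switches checkpoint kinases off, fell by 0.40 on the log2 scale (limma adjusted p = 0.0120), and *PPP2R2D*, a regulatory subunit of phosphatase 2A, fell by 0.27 (limma adjusted p = 0.0293). The number that fell was 1 without *DUSP6* siRNA replicate 3.

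**Figure D5:**
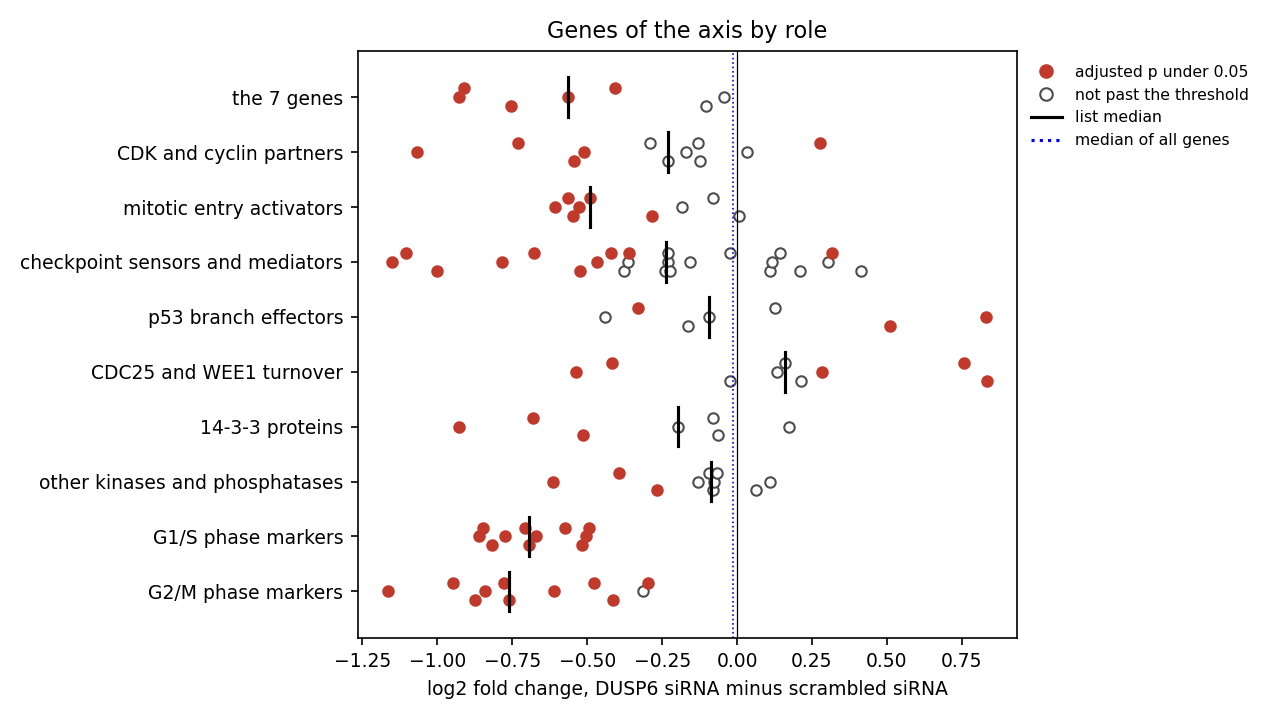
Log2 fold change (DUSP6 siRNA minus scrambled siRNA, horizontal axis) of the tested genes of each role, 1 point per gene (vertical offsets only separate points), where filled points passed a limma adjusted p under 0.05, black bars mark list medians and the dotted line the median of all tested genes. Among the 10 groups plotted, the medians lie lowest for the G1/S and G2/M markers (-0.70 and -0.76), the 7 genes (-0.56) and the mitotic entry activators (-0.49), and of these 10 only the median of the turnover genes is above 0 (0.16).

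Markers of cycling cells moved with the 5 genes that fell. All 11 G1/S markers fell (median log2 fold change -0.70), and their summed value ran from 1469 to 1761 with scrambled siRNA and from 944 to 1082 with *DUSP6* siRNA. *MCM2*, *MCM6* and *MCM5*, subunits of the replicative helicase, fell by 0.86, 0.85 and 0.82 on the log2 scale. Of the 11 G2/M markers 10 fell, 0 rose and 1 did not pass (median log2 fold change -0.76), with sums from 1729 to 2477 and from 1107 to 1291. The number of G2/M markers that fell was 8 with quantile normalization and ranged from 8 to 10 with a library left out. *MKI67*, the proliferation marker Ki-67, fell from 711 ± 193 to 310 ± 45.5 (SD, n = 3 each, log2 fold change -1.17, limma adjusted p = 0.00186). *KIF20A* and *TPX2*, both of the mitotic spindle, fell by 0.95 and 0.87. The part of the phase makeup of the cells in the values of the 7 genes was not tested.

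Interferon response genes moved with the groups as well. All 11 rose, with a summed value from 219 to 277 under scrambled siRNA and from 4149 to 5082 under *DUSP6* siRNA. *IFIT1*, *OASL* and *IFIT2*, antiviral effectors, rose by 7.19, 6.37 and 6.21 on the log2 scale. Of the 9 luminal and HER2 markers that define the line, 7 fell, 1 rose and 1 did not pass, and their summed value ran from 4229 to 5660 with scrambled siRNA and from 3048 to 3282 with *DUSP6* siRNA, so the defining markers were present in every library. Of 11 markers of basal, stromal, immune and endothelial cells, 3 were tested, 1 of which rose and 1 fell, and 8 were not tested. The sum over these markers ran from 95.3 to 127 with scrambled siRNA and from 170 to 200 with *DUSP6* siRNA, and most of it was *COL1A1*, a collagen gene of stromal cells, which rose (log2 fold change 0.90, limma adjusted p = 4.21e-04). The other stromal markers were near 0, with *COL1A2* at most 0.134 and *PDGFRB* at most 0.268 in any library. Of the basal markers, *TP63* fell from 10.1 ± 4.47 to 1.76 ± 0.337 (SD, n = 3 each, log2 fold change -1.95), *KRT5* was at most 0.920, and *KRT14* was at most 0.0575 with scrambled siRNA and between 0.281 and 0.404 with *DUSP6* siRNA. The immune marker *CD68* did not pass the test (log2 fold change -0.13), *PTPRC* was at most 0.0809, and the endothelial markers *PECAM1* and *CDH5* were at most 0.253 and 0.0464. The part of these genes in the values of the 7 genes was not tested.

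For each of the 7 genes, the 2 genes with the most similar pattern over the 6 libraries were taken from the other 12861 tested genes, by the root mean square difference of log2(value + 1) after centring each gene on its mean. The nearest to *CDC25B* were *GCNT1* (0.0357) and *HELLS* (0.0415), and the nearest to *CDC25C* were *SGTA* (0.0297) and *HMGB2* (0.0365). *WEE1* had *FAR2* (0.0150) and *RAB10* (0.0278) nearest, and *CHEK1* had *RNF25* (0.0172) and *HDDC2* (0.0173). *PKMYT1* had the least close neighbors, *KIF26A* (0.0802) and *MCM2* (0.103). The nearest to *CHEK2* were *GLRX3* (0.0355) and *CTRL* (0.0383), of which *CTRL* shares 13.5% of its exon sequence with *PSKH1* and is uncertain. *CDC25A*, with its wide spread under scrambled siRNA, was nearest to *SNORA10* (0.0475), whose exon lies wholly inside *RPS2*, and to *LOC344967* (0.0620), whose exon overlap was not checked. Some neighbors had low values, which the log2(value + 1) scale draws together. The means with scrambled siRNA and *DUSP6* siRNA were 1.18 and 1.06 for *SNORA10* and 1.66 and 1.57 for *CTRL*. They were 4.47 and 4.23 for *LOC344967*, 5.78 and 2.54 for *GCNT1* and 6.29 and 4.46 for *FAR2*. With 6 libraries in 2 groups, a small difference mostly reflects a like fold change and says nothing of shared function.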

How the data were processed

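RNA sequencing libraries of MDA-MB-453 cells (3 *DUSP6* siRNA, 3 scrambled siRNA) were made with a TruSeq stranded kit. With Rsubread at default settings, the authors mapped reads to hg38, counted them over RefSeq gene models and deposited 1 normalized signal value for each gene in each library. bcl2fastq and edgeR are named in the submitters' processing notes. All values (100%, tolerance 0.001 read) were whole reads times 1 step per library, between 0.0121 and 0.0202, and the scaling factors differed from edgeR's TMM factors by at most 2.22e-16.

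limma 3.58.1 in R 4.3.3 (lmFit, eBayes with a trend) was run on log2(value + 1). Of 22807 genes, the 12862 whose mean value reached 1 were tested. A gene was called where its Benjamini-Hochberg adjusted p was under 0.05. Gene rows without a symbol (349, 1.53%) were tested under their gene ID. Scripts were tested on simulated data. Positions and promoters came from RefSeq on GRCh38 and exon overlaps and transcript lengths from GENCODE on the same build. A gene given with a value was reported as uncertain where another gene of the table covered over 5% of its exons. The 7 genes, the lists and the tests were chosen with earlier results of these data known.

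The genes named were the 7, *DUSP6*, up to 3 genes of each list with the largest change among those called without overlap, the 2 nearest patterns of each of the 7, and genes stated as chosen after their values were seen, to which *FAM53C*, *PAQR4*, *HSCB*, *CHEK2P2* and the markers of other cells belong. The choices varied were the pseudocount (0.1), the filter (none, or a mean of 10), the scaling (median of ratios, quantile), the model (a replicate block, or eBayes with no trend), the test (edgeR 4.0.16, quasi-likelihood, on the recovered read counts) and the libraries (each left out in turn). The other assays and cell lines of the study were not analysed here.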

Additional observations from a re-analysis of the deposited data

How the results depend on the processing

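The 5 calls among the 7 genes held under every alternative run, with log2 fold changes from -0.97 to -0.80 for *CDC25B*, -0.83 to -0.68 for *CDC25C*, -0.44 to -0.37 for *WEE1*, -1.10 to -0.84 for *PKMYT1* and -0.59 to -0.48 for *CHEK1*. Each of these runs kept TMM or another scaling between libraries. CPM on unscaled library sizes was not among them, so the dependence of the calls on such scaling was not tested. *CHEK2* stayed between -0.20 and -0.04 and was not called. *CDC25A* changed sign, to 0.046 (limma adjusted p = 0.866) under quantile normalization and, over libraries left out in turn, ran from -0.27 to 0.22. Of the list counts, CDK and cyclin partners called higher went from 1 to 0 with a replicate block and ranged from 0 to 1 with a library left out. Checkpoint sensors and mediators called higher went from 1 to 2 with median-of-ratios scaling, 3 with quantile normalization and 2 with a replicate block, and ranged from 0 to 2 with a library left out. Quantile normalization also gave 1 higher among the 14-3-3 genes, 1 higher among the other kinases and phosphatases and 0 lower in the p53 branch. With a library left out, the other kinases and phosphatases called lower ranged from 1 to 3 and those of the p53 branch from 0 to 2. The cause was not tested. Over all genes, those called higher went from 2540 to 1639 with a mean value of at least 10, where fewer genes are tested, and with a library left out ranged from 1574 (without *DUSP6* siRNA replicate 2) to 3183 (without scrambled siRNA replicate 3). In all, 481 other values were taken as unchanged. A fold change had to keep its sign and its side of the threshold, and a ratio had to move within the spread. For a count, limited relative changes were allowed. The checkpoint sensors and mediators called lower, 9 in the main run, ranged from 7 to 12 with a library left out. Counts that stayed at 0, such as interferon response genes called lower, are among the unchanged values. The labels do not say whether replicate numbers pair the samples. Correlations of same-numbered libraries, after centring each group, were 0.005, 0.0868 and -0.0764, and those of other pairs ran from -0.0907 to 0.132. With so few libraries per group, these correlations cannot settle the pairing. With the replicate block no call among the 7 genes changed.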
